A study of Mus musculus with 34 samples.

Results

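The genes described here are 7 transcripts of the mouse heart that mark atrial muscle or its hormones: the natriuretic peptide genes Nppa and Nppb, the growth factor gene Bmp10, the atrial myosin light chain genes Myl4 and Myl7, the sarcolipin gene Sln and Mybphl, which encodes a relative of cardiac myosin-binding protein. They were chosen by name, with earlier results of these data known. All 7 were found among the 13238 genes of the heart count table, all 7 were among the 13230 genes that passed the filter on low counts, and 6 of the 7 had a deposited log2 value (Bmp10 was read from the counts). Heart RNA came from C57BL/6J mice of 20 to 22 months. Control mice (5 libraries) ate a diet with 10% of its calories from fat, HFCD mice (5 libraries) a high-fat, high-calorie diet with 60% of its calories from fat, and HFCD+FMD mice (4 libraries) the same HFCD interrupted every 4 weeks by 5 days of a fasting mimicking diet (FMD), a short plant-based, low-calorie regimen. From cycle 6 on, the mice ate control diet for 2 days after each FMD before they returned to HFCD. Hearts were taken 4 days after the last FMD of 11 cycles. The labels give the tissue as heart and do not name the chambers taken.

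Atrial muscle cells store natriuretic peptides in granules and release them when the wall is stretched. The peptides act through the receptor encoded by Npr1, which makes cyclic GMP, and promote salt and water loss and vessel relaxation. In an adult rodent heart Nppa and the light chains Myl4 and Myl7 are atrial genes at rest, while ventricular muscle uses Myl2 and Myl3 in their place and can switch Nppa and Nppb on under load. Bmp10, a secreted ligand of the bone morphogenetic protein family, is made in the adult mouse mainly by right atrial muscle. Sarcolipin is a small membrane protein that holds back the calcium pump of the sarcoplasmic reticulum, encoded by Atp2a2 in heart.

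Libraries held 16848195 to 33180337 counts in control, 23707218 to 41712499 in HFCD and 17050559 to 47859170 in HFCD+FMD. Mitochondrially encoded genes took 21.8% to 32.6%, 36.4% to 71.5% and 29.5% to 62.0% of them. HFCD replicates 3 and 5 stood apart in the genes described here, so results are given with and without them. HFCD replicate 5 was also the only library of a 22-month-old mouse and the only HFCD library in its set of libraries (set C, below), so age, set and animal cannot be told apart for it. The unit below is CPM, the usual depth-scaled count, with library totals scaled by TMM, a method that corrects them for a few very abundant genes.

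Nppa encodes atrial natriuretic peptide. In control replicates 2 to 6 it stood at 6.58, 58.0, 33.9, 76.8 and 12.6 CPM, in HFCD replicates 1 to 5 at 27.9, 14.8, 314, 5.20 and 1282 CPM, and in HFCD+FMD replicates 1, 2, 3 and 5 at 23.1, 11.1, 17.9 and 8.54 CPM. HFCD replicates 3 and 5 were above every other library, and the other 3 HFCD libraries lay inside the spread of the other diets or just below it. The HFCD mean was 329 ± 548 CPM (SD, n = 5) with all libraries, 90.5 ± 149 CPM (n = 4) without replicate 5 and 15.98 ± 11.4 CPM (n = 3) without replicates 3 and 5. In bulk tissue, more cells of a type and more RNA per cell cannot be told apart. The control mean was 37.6 ± 29.8 CPM (n = 5) and the HFCD+FMD mean 15.2 ± 6.62 CPM (n = 4). Nppa (ENSMUSG00000041616) lies on chromosome 4 at 148000722 to 148002079 of GRCm38.

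Nppb encodes brain natriuretic peptide and is the neighbour of Nppa on chromosome 4 (ENSMUSG00000029019, 147985788 to 147987205), 13516 bases upstream. It did not share the pattern. Its levels were 120, 93.9, 107, 93.6 and 16.7 CPM in the control libraries, 68.7, 47.3, 49.8, 42.2 and 119 CPM in the HFCD libraries and 73.8, 169, 99.2 and 43.1 CPM in the HFCD+FMD libraries. The diets overlapped over most of their range, the lowest library was control replicate 6, and HFCD replicate 3, high in Nppa, was not high in Nppb. The means were 86.2 ± 40.3 CPM in control, 65.4 ± 31.6 CPM in HFCD and 96.4 ± 53.8 CPM in HFCD+FMD (SD). Per kilobase of exon, the scale on which genes can be compared, Nppb was above Nppa in 12 of the 14 libraries, all except HFCD replicates 3 and 5. In HFCD replicate 5 Nppa reached 1482 CPM per kilobase and Nppb 152.

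Bmp10 (ENSMUSG00000030046, chromosome 6 at 87428994 to 87437677) was close to undetected in 13 libraries and abundant in 1. It had 2 to 20 counts in the control libraries, 9 to 26 counts in HFCD replicates 1 to 4, and 25569 counts in HFCD replicate 5. That is 850 CPM, against 0.793 CPM in HFCD replicate 3, the next in its group. In HFCD+FMD replicates 1, 2 and 3 it stood at 0.195, 0.297 and 0.321 CPM, and in replicate 5 at 2.61 CPM from 83 counts. HFCD replicate 3, which was high in Nppa and in the muscle genes below, was thus within the range of the low libraries for Bmp10.

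The 4 muscle genes shared 1 order of libraries. Myl7, the atrial regulatory light chain (ENSMUSG00000020469, chromosome 11 at 5896637 to 5898782), had 0.246, 0.177, 0.364, 21.6 and 9.38 CPM in control replicates 2 to 6. In HFCD replicates 1 to 5 it had 0.144, 0.374, 135, 0.0598 and 189 CPM, and in the HFCD+FMD libraries 0.0975, 0.122, 0.107 and 0.0942 CPM. In Myl7 HFCD replicate 5 was highest, then HFCD replicate 3, control replicate 5 and control replicate 6, and the remaining 10 libraries lay under 1 CPM. Those 10 libraries held only 2 to 10 Myl7 counts each. Myl4, the atrial essential light chain (ENSMUSG00000061086, chromosome 11 at 104550663 to 104595753), had the same first 4 libraries in the same order: 498 and 193 CPM in HFCD replicates 5 and 3, and 22.3 and 13.8 CPM in control replicates 5 and 6. Its other libraries ranged from 0.628 to 2.43 CPM.

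Sln (ENSMUSG00000042045, chromosome 9 at 53850164 to 53854560) and Mybphl (ENSMUSG00000068745, chromosome 3 at 108364911 to 108380057) followed that order as well. Sln stood at 164 and 33.6 CPM in HFCD replicates 5 and 3 and at 3.83 and 1.85 CPM in control replicates 5 and 6. Mybphl stood at 72.2 and 25.9 CPM in the same HFCD libraries and at 4.43 and 0.925 CPM in the same control libraries. Both were at 0.317 CPM or less in each other library. Sln had 0 counts in HFCD replicate 1 and HFCD+FMD replicates 1 and 3, which allows up to 0.127, 0.176 and 0.102 CPM of the unscaled total (3 counts, counting error only). These 4 genes and Nppa had HFCD replicates 5 and 3 as their highest libraries, 5 of the 7 genes, where 701 of the 13230 genes tested (5.30%) did. Because the 7 genes were chosen with earlier results of these data known, this is a description and no test.

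**Figure D1:**
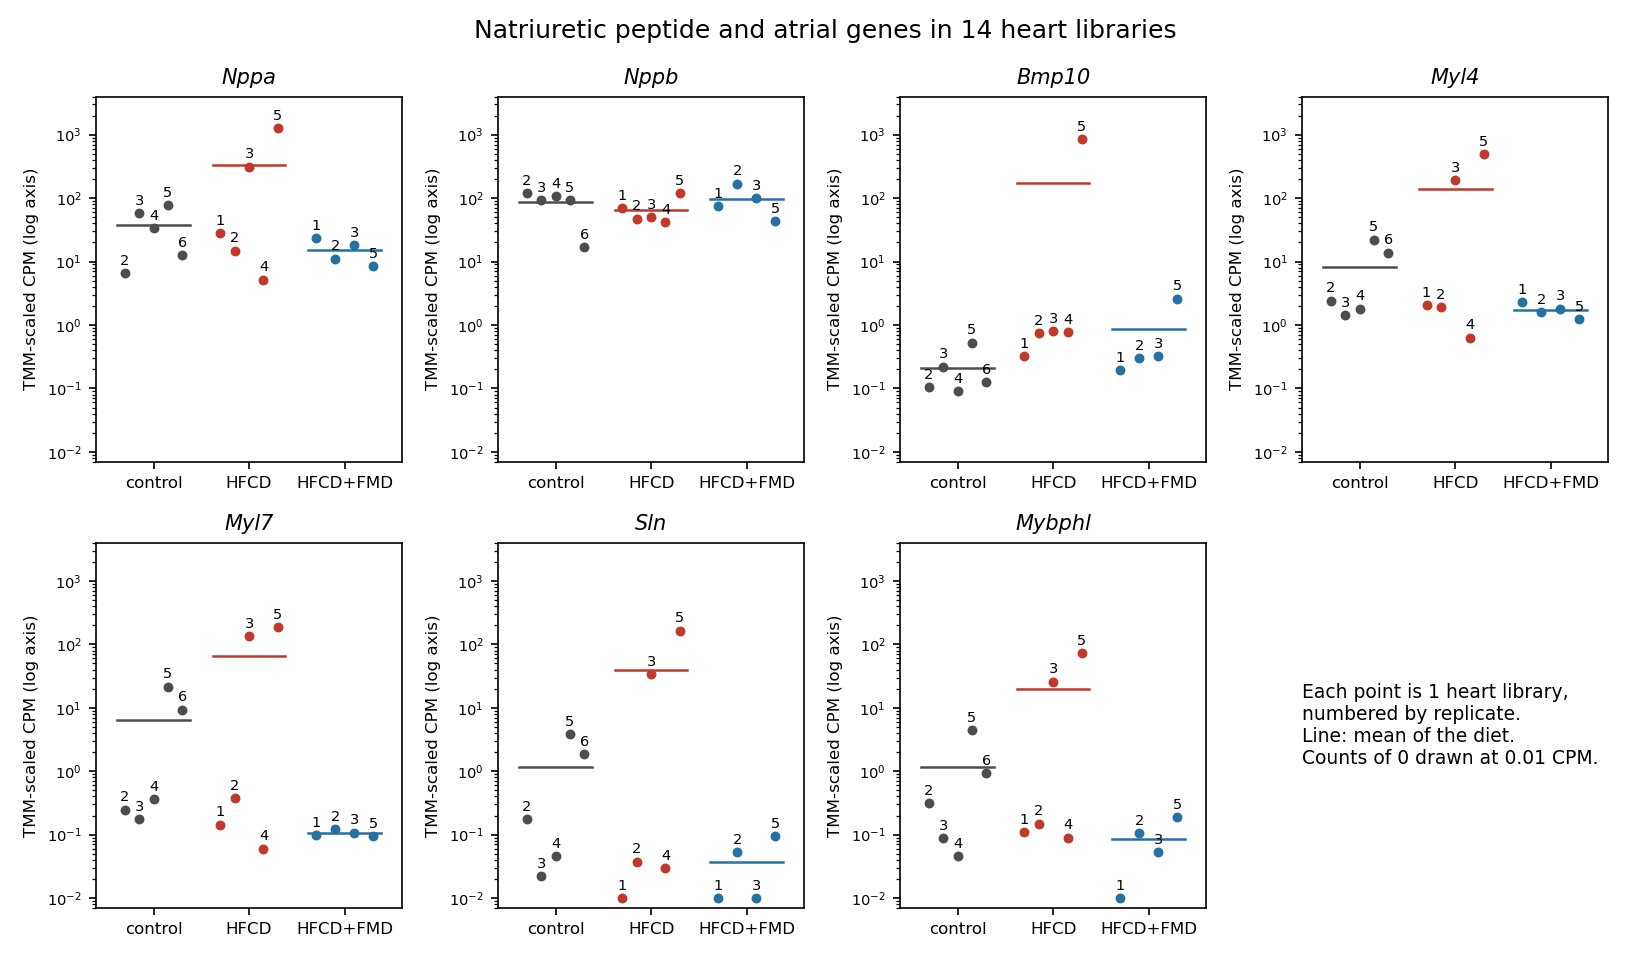
Level of each of the 7 genes in TMM-scaled CPM (vertical log axis) in the 14 heart libraries by diet; each point is 1 library with its replicate number, and lines are diet means. HFCD replicates 3 and 5 lie far above the rest in Nppa, Myl4, Myl7, Sln and Mybphl, control replicates 5 and 6 lie between in the last 4 of these, Nppb overlaps between diets, and Bmp10 is high in HFCD replicate 5 (850 CPM).

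The genes did not keep 1 proportion in the 4 libraries. Per Myl7 count, Sln had 0.872 in HFCD replicate 5, 0.249 in HFCD replicate 3, 0.177 in control replicate 5 and 0.197 in control replicate 6. Bmp10 per Myl7 was 4.51 in HFCD replicate 5 and 0.00586 in HFCD replicate 3. Against its ventricular counterpart Myl2 (per kilobase), Myl7 amounted to 20.8% in HFCD replicate 5, 9.86% in HFCD replicate 3, 1.12% in control replicate 5 and 0.521% in control replicate 6. In the other 10 libraries this was 0.00389% to 0.0228%. Myl4 against Myl3, the ventricular essential light chain, gave 19.5% and 6.84% in HFCD replicates 5 and 3.

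Promoter sequences are shown for Nppa and its neighbour Nppb, whose levels did not go together, and for Bmp10, Myl7 and Mybphl, of which Bmp10 was high in HFCD replicate 5 alone. RefSeq start sites on GRCm38.p6 matched 6 of the 7 genes (all except Sln). The letters below run 5′ to 3′ on the gene's strand and end at the base before the start site, or before an annotated exon where that comes first. Capitals mark matches on either strand to GATAA (bound by GATA factors), CATTCC (TEAD factors), CAAGTG (Nkx2-5), GGTGTGA (T-box factors) or the CArG box (serum response factor). The stretch of Nppb holds no match and so no capitals. They are Nppa at chr4:148000472-148000721 (+), its neighbour Nppb at chr4:147985650-147985787 (+), Bmp10 at chr6:87428744-87428993 (+), Myl7 at chr11:5898783-5899032 (-) and Mybphl at chr3:108364661-108364910 (+).
Nppa: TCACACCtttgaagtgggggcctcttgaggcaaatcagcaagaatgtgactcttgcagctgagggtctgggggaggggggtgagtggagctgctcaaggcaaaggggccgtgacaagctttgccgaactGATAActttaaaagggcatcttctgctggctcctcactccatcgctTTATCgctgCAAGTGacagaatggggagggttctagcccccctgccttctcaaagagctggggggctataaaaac
Nppb: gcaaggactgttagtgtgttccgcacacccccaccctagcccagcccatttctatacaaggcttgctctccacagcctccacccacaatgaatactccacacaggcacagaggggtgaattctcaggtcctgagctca
Bmp10: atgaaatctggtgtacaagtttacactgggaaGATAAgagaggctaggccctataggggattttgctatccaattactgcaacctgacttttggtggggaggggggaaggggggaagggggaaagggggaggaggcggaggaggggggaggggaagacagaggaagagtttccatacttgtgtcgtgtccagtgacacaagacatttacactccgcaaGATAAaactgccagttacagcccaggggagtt
Myl7: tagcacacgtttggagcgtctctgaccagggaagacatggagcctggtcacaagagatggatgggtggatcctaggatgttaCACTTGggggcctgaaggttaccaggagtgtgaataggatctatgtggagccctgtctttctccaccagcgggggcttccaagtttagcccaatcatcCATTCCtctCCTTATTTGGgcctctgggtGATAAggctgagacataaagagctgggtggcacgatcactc
Mybphl: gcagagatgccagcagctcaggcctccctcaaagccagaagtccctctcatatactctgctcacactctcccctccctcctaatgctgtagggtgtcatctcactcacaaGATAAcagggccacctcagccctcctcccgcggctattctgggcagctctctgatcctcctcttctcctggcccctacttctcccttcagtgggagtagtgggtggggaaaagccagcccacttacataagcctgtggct

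Over the 250 bases before the start, GATAA was found in 5 of the 6 promoters (all except Myl4), against 22.6% of 32851 promoters in the same table. In Nppb its 2 matches lie in bases that the GENCODE annotation counts as exon and that are not printed. CATTCC was found in Nppb and Myl7 (12.6% of all promoters), CAAGTG in Nppa and Myl7 (11.6%), GGTGTGA in Nppa (3.33%) and the CArG box in Myl7 (1.47%). The Myl7 promoter held 4 of the 5 motifs, with CATTCC, the CArG box and GATAA close together near its start site. GATAA was thus present in Nppb, which overlapped between diets, and in Nppa, Myl7 and Mybphl, which had HFCD replicates 5 and 3 as their highest libraries. These are matches of letters and show no binding.

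HFCD against control asked what the high-fat diet changed. None of the 7 genes passed (edgeR quasi-likelihood test, Benjamini-Hochberg adjusted p under 0.05 over all genes), and none of the 13230 genes tested did (0.00%; 1687 had an unadjusted p under 0.05, 61 passed with DESeq2 and 0 with limma-voom). The log2 fold changes of Myl4, Sln, Myl7, Nppa, Mybphl and Bmp10 were 3.11 (SE 1.62), 2.51 (SE 1.92), 2.24 (SE 2.11), 1.99 (SE 1.27), 1.88 (SE 1.70) and 1.56 (SE 1.003), and that of Nppb was -0.72 (SE 0.46). Their edgeR adjusted p-values ran from 0.429 to 0.604. The median of the 7 was 1.99, beside 0.01 over all genes. Without HFCD replicates 3 and 5 the estimates for Nppa, Myl4, Myl7 and Mybphl turned to -1.56, -2.52, -5.28 and -3.78, and the median of the 6 genes still tested was -2.04. Control replicate 5 then held the highest value of each of these 4 genes. None passed with or without the 2 libraries.

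HFCD+FMD against HFCD asked what the fasting cycles changed on top of the high-fat diet. Bmp10 was lower under HFCD+FMD (log2 fold change -9.25, SE 0.98, edgeR adjusted p = 0.00295) and was the only 1 of the 7 to pass, where 14 of 13230 genes did (0.106%). That call rests on 1 library: without HFCD replicate 5 the log2 fold change was -0.35. In that fit set C held only HFCD+FMD libraries, so the set term took them up and HFCD+FMD replicate 1 alone carried the estimate. The same holds for each HFCD+FMD estimate below that leaves out HFCD replicate 5 and keeps the set term. Of the 4 HFCD+FMD libraries, replicate 5 (2.61 CPM) was above each HFCD library other than replicate 5. Without HFCD+FMD replicate 3 it was -8.79 (adjusted p = 0.0577). All 14 genes that passed were highest in HFCD replicate 5. Without HFCD replicate 3 Mybphl passed too (-9.11, adjusted p = 0.0274). With all libraries Sln, Myl7, Mybphl, Myl4 and Nppa had estimates of -11.41, -10.35, -9.17, -7.00 and -4.70 with SE of 1.68 to 3.31 and adjusted p-values of 0.157 to 0.308, and Nppb had 0.34 (SE 0.57, adjusted p = 0.911). Estimates for genes with so few counts in a group depend on the small count that the fit adds and are no bounds. Without HFCD replicates 3 and 5, 6 genes were still tested, and the estimates for Nppa, Myl4 and Myl7 were 1.55, 0.75 and -0.31. The median of the 7 was -9.17 with all libraries and the median of those 6 was 0.24 without these, beside 0.00 and 0.01 over all genes.

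HFCD+FMD against control asked whether the fasted group differed from the lean diet. None of the 7 passed (edgeR), where 3 of 13230 genes did (0.0227%; 1254 at an unadjusted p under 0.05, 145 with DESeq2 and 1 with limma-voom). Bmp10 had an estimate of -7.69 (SE 1.48, adjusted p = 0.128), although its mean was 0.855 ± 1.17 CPM in HFCD+FMD and 0.214 ± 0.181 CPM in control. In the fit with library sets, HFCD replicate 5 is the single library that ties set C, with 3 of the 4 HFCD+FMD libraries, to another diet. Without the set term the Bmp10 estimate was 1.90 (adjusted p = 0.679), in the direction of the means. Bmp10 passed without HFCD+FMD replicate 1 (-8.48, adjusted p = 0.00662), and Mybphl passed without HFCD replicate 3 (-12.88, adjusted p = 0.0165). Myl7 was the single gene of the 7 with every HFCD+FMD library below every control library, where 4.26% of all genes tested were so, and its counts there were 7 to 824 in control and 2 to 7 in HFCD+FMD. Its estimate was -8.12 (SE 3.64, edgeR adjusted p = 0.522). Without HFCD replicates 3 and 5 it was -5.60, carried by HFCD+FMD replicate 1 alone.

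**Figure D2:**
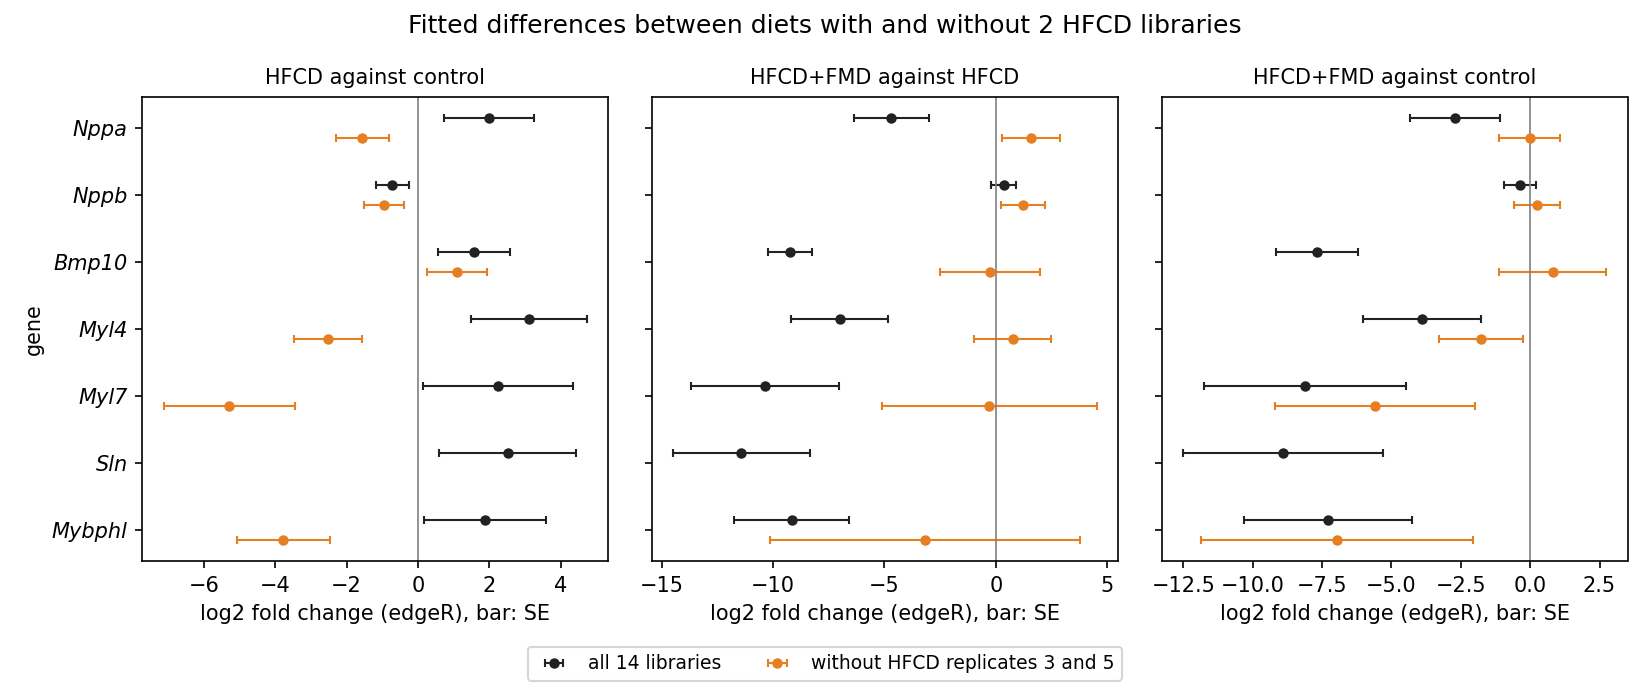
Log2 fold change (horizontal axis) of each gene from the edgeR fit in the 3 comparisons, black with all 14 libraries and orange without HFCD replicates 3 and 5; bars are 1 SE, and Sln was below the count filter without these libraries. Nppa and Myl4 change sign in the first 2 panels when the 2 libraries are left out, while Nppb lies between -0.96 and 1.21 throughout. In the panels with HFCD+FMD the orange points rest on HFCD+FMD replicate 1 alone, since the set term takes up the other HFCD+FMD libraries.

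In the deposited log2 table a term per gene had been removed within 3 sets of libraries, of 7 (set A), 3 (set B) and 4 libraries (set C). Values were compared with log2 CPM of the same counts after allowing for 1 offset per library. In set C they were shifted by -6.34 for Sln, -5.17 for Mybphl, -4.80 for Myl7, -3.86 for Myl4 and -2.10 for Nppa, and by -0.82 for Nppb. The median size of the shift in set C over all genes was 0.195. Sln had a count of 0 in 3 libraries, and the deposited values there were -5.42 in HFCD replicate 1 (set A), -7.28 in HFCD+FMD replicate 1 (set B) and -11.56 in HFCD+FMD replicate 3 (set C). Set C holds HFCD replicate 5, the highest library of each of these 5 genes, and 3 of the 4 HFCD+FMD libraries. Myl7 had 7, 2 and 3 counts in those 3 HFCD+FMD libraries and deposited values of -7.73, -7.70 and -7.98, while HFCD replicate 4, with 2 counts, had -3.30.

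A limma fit of diet alone on the deposited log2 values called more of the genes. For HFCD+FMD against HFCD it called 5 of the 6 genes lower (Mybphl -6.89, Sln -8.31, Myl7 -7.92, Myl4 -5.58 and Nppa -4.01; limma adjusted p from 0.0165 to 0.0452), where 10.0% of all genes were called. For HFCD+FMD against control it called Mybphl (-5.98), Sln (-7.47) and Myl7 (-6.95) lower, where 8.99% of all genes were called, and for HFCD against control none of the 6, where 0.403% were. Nppb was not called in any of these (adjusted p from 0.408 to 0.857). Neither the 5 nor the 3 passed in the edgeR fit of the counts with the sets as a factor. A fit of diet alone on values from which set terms were already taken does not carry the error of those terms.

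**Figure D3:**
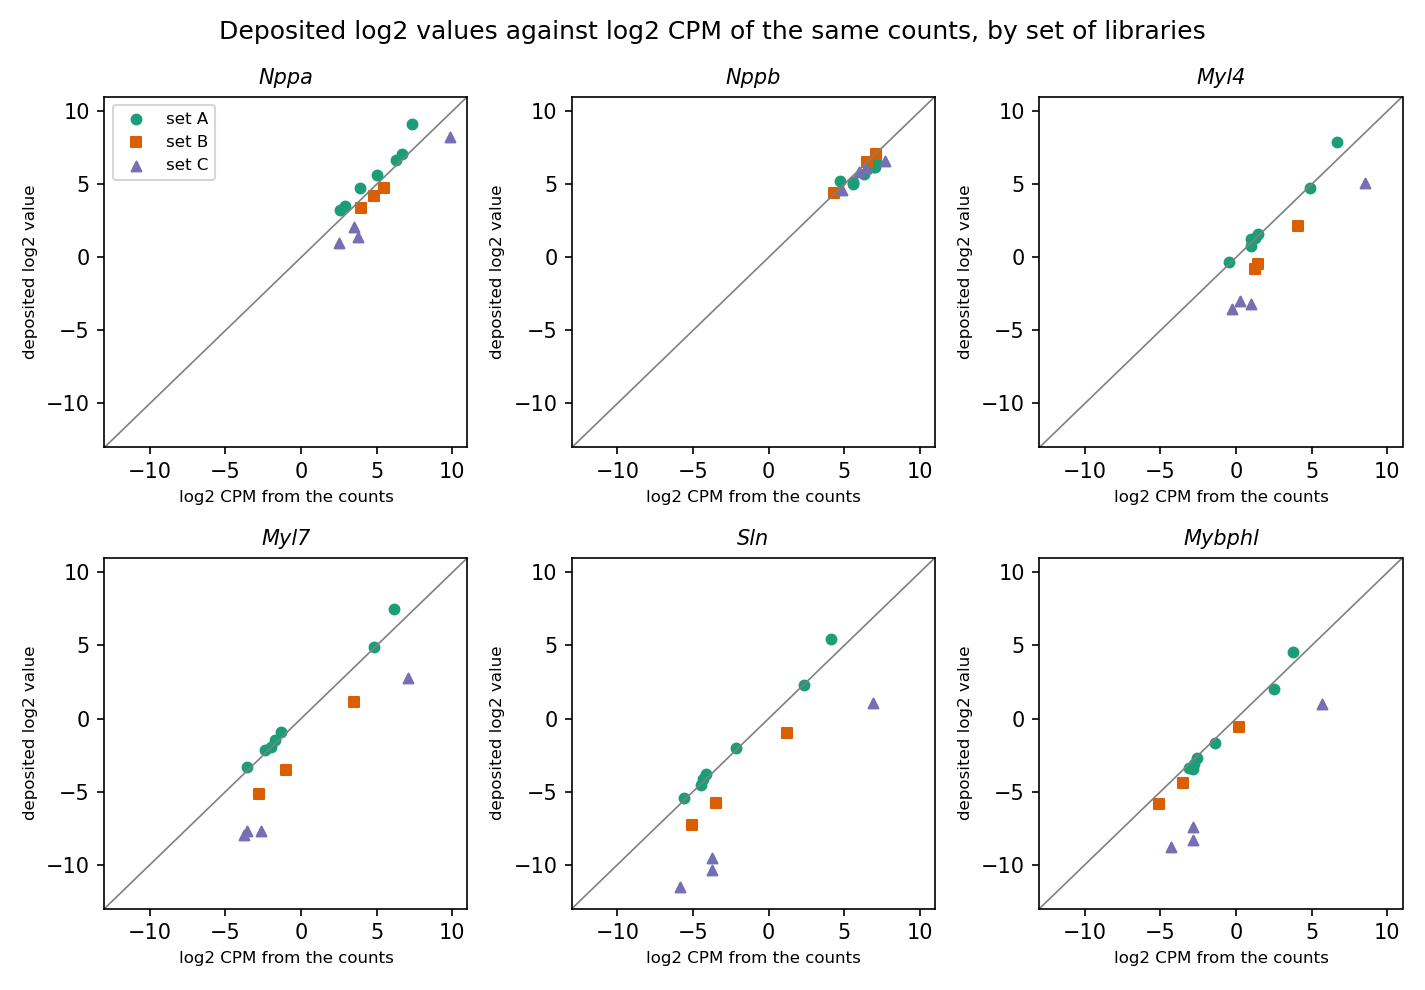
Deposited log2 value (vertical axis) against log2 CPM of the same counts (horizontal axis) for the 6 genes with deposited values; each point is 1 heart library, colour and shape give its set, and the grey line marks equal values. Libraries of set C lie below the line by 6.34 for Sln and 4.80 for Myl7, after allowing for the library's own scale, and close to it for Nppb.

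Most other genes enriched in atrial muscle were highest in the same HFCD libraries. Of 11 such genes counted, 8 had HFCD replicates 5 and 3 as their highest libraries, and HFCD replicate 5 was highest in 8. Of all genes tested, 5.30% had these 2 libraries highest and 13.2% were highest in HFCD replicate 5. Dkk3, a secreted modulator of Wnt signalling, stood at 276 and 76.4 CPM in HFCD replicates 5 and 3, at 17.5 and 18.8 CPM in control replicates 5 and 6 and at 2.74 to 9.06 CPM elsewhere. Tbx5, a T-box factor of the atria and conduction system, stood at 125 and 78.8 CPM in the 2 HFCD libraries and at 15.8 to 46.7 CPM elsewhere, and Pam, which amidates secreted peptides and is abundant in atrial granules, at 1999 and 1185 CPM against 286 to 644 CPM. The potassium channel gene Kcna5 was not high in them, with its lowest level in HFCD replicate 5 (18.2 CPM) and 20.4 CPM in HFCD replicate 3. It was 18.3 CPM in HFCD+FMD replicate 3 and 22.4 to 40.9 CPM elsewhere. Kcnj5, another potassium channel gene, was 68.7 CPM in HFCD replicate 5, inside the range of the other libraries (36.4 to 77.1 CPM). Its highest level was in HFCD replicate 3. The summed level of the 11 was 509 to 904 CPM in control, 706 to 2883 CPM in HFCD and 836 to 929 CPM in HFCD+FMD. None of the 11 passed in any comparison (edgeR), while limma on the deposited log2 values called 7 lower in HFCD+FMD than in HFCD and 3 lower than in control. Of all genes, limma called 10.0% and 8.99% in these comparisons. The edgeR medians were 0.54, -1.21 and -0.64 in the order of comparisons above. The part of atrial tissue content in the levels of the 7 genes was not tested.

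The ventricular light chains and cardiac actin were low in HFCD replicates 5 and 3, and Myl3 also in HFCD+FMD replicates 5 and 3. Myl2 was 3000 CPM in HFCD replicate 5, the lowest of the 14 libraries, and 4536 CPM in HFCD replicate 3, where the others ranged from 5078 to 12244 CPM. Myl3 was 1129 and 1246 CPM in HFCD replicates 5 and 3, against 1309 to 4742 CPM elsewhere. HFCD+FMD replicates 5 and 3, with 0.0942 and 0.107 CPM of Myl7, had 1309 and 1759 CPM of Myl3. The remaining libraries had at least 2097 CPM of it. Actc1, the cardiac actin of all chambers, was 2665 and 5383 CPM in them against 6402 to 14180 CPM elsewhere. Actc1 was 10278 to 14180 CPM in the HFCD+FMD libraries, above every HFCD library (2665 to 7788 CPM), where 2.59% of all genes tested had every HFCD+FMD library above every HFCD library. Hey2, a ventricular transcription factor gene, was instead highest in HFCD replicate 5 (6.89 CPM; 6.19 CPM in HFCD replicate 3, 6.31 CPM in HFCD replicate 4 and at most 5.59 CPM elsewhere). In HFCD replicates 5 and 3, the ventricular genes Myh7 (165 and 233 CPM), Irx3 (20.3 and 27.5 CPM) and Pln (4570 and 5756 CPM) lay inside the range elsewhere. Irx4 (11.1 and 11.0 CPM) lay below it. Kcnip2 was lowest in HFCD replicate 3 (38.7 CPM) and inside the range in HFCD replicate 5 (66.8 CPM). None of Myl2, Myl3 and Actc1 passed (edgeR adjusted p from 0.0881 to 0.978), and of the 8 ventricular genes tested none passed in any comparison (edgeR), with medians of -0.12, 0.25 and 0.15. Limma on the deposited values called 1 of the 8 higher and 1 lower in HFCD+FMD than in HFCD, where it called 10.0% of all genes.

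The receptors and processing enzymes of the natriuretic peptides varied far less than Nppa. Corin, the protease that cuts the Nppa precursor, was 502 CPM in HFCD replicate 5 and 174 to 329 CPM elsewhere (HFCD+FMD against HFCD -0.89, edgeR adjusted p = 0.0857). Npr3, the clearance receptor, which endocardium also makes, was 57.0 CPM there and 17.6 to 32.95 CPM elsewhere (adjusted p = 0.453). Npr1, the signalling receptor, ranged from 8.04 to 21.8 CPM. Of 14 pathway genes tested none passed in any comparison with edgeR, with medians of 0.21, -0.14 and 0.10. Limma on the deposited values called 1 of them higher and 2 lower in HFCD+FMD than in HFCD, and 1 higher and 1 lower than in control. Of all genes, it called 10.0% against HFCD and 8.99% against control. The 16 tested genes of Bmp10 receptors, Smad proteins and targets gave none with edgeR, with medians of 0.09, -0.18 and -0.17, and 1 lower in HFCD+FMD than in control with limma on the deposited values (adjusted p = 0.0464). Atp2a2, the pump that sarcolipin inhibits, ranged from 6102 to 14268 CPM and had adjusted p-values of 0.765 to 0.936.

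Among cardiac factors and load markers, no gene passed with edgeR, but the summed level of 12 cardiac stress genes was 12661 to 16362 CPM in HFCD+FMD, above control (8970 to 12214 CPM) and HFCD (6433 to 10368 CPM). Actc1 is 1 of the 12 and supplied most of that sum in HFCD+FMD. Gata4 ranged from 66.4 to 103 CPM and Nkx2-5 from 13.6 to 52.3 CPM, with adjusted p-values of 0.588 to 0.993. Ankrd1, a stretch-responsive gene, was 1704 and 1302 CPM in HFCD replicates 5 and 3 and 1243 CPM in control replicate 5, and 212 to 739 CPM elsewhere. Acta1, the skeletal actin of the fetal gene program of loaded ventricle, was lowest in HFCD replicate 5 (10.6 CPM) and 36.8 to 198 CPM elsewhere. Over the 12 cardiac stress genes and 15 cardiac regulators tested, the smallest edgeR adjusted p was 0.0711. Limma on the deposited values called 2 stress genes higher and 2 lower in HFCD+FMD than in HFCD, and 3 higher and 2 lower than in control. It called 1 regulator higher and 1 lower against HFCD, and 1 higher against control. Of all genes, limma called 10.0% against HFCD and 8.99% against control.

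Markers of other cell types moved with some of these libraries. Adipoq, the adipocyte hormone adiponectin, was 9.31, 3.01 and 1.22 CPM in HFCD replicate 5 and control replicates 5 and 6, 3 of the 4 libraries high in Myl7, and 0.238 CPM in HFCD replicate 3, the fourth. The other 10 libraries had 0.0722 to 0.591 CPM. Of 8 adipocyte markers 6 were counted, their sum was 13.9 to 32.2 CPM in control, 18.1 to 74.6 CPM in HFCD and 18.8 to 28.5 CPM in HFCD+FMD, and Plin1 had no count in 4 libraries. Cidea, a gene of brown fat, made up most of that sum outside HFCD replicate 5 and control replicate 5 (11.1 to 28.1 CPM over all libraries). The other 5 (Adipoq, Plin1, Cfd, Cidec and Retn) were lower in every HFCD+FMD library than in every control library, where 4.26% of all genes tested were so. Cfd, for example, was 1.02 to 5.37 CPM in control, 0.108 to 27.9 CPM in HFCD and 0.122 to 0.374 CPM in HFCD+FMD. Cfd and Cidec, both adipocyte genes, were lower in HFCD+FMD than in HFCD (edgeR adjusted p = 0.0392 for each) and than in control (edgeR adjusted p = 0.0155 and 0.0157). Within HFCD only replicate 5 was high in them (27.9 CPM for Cfd and 8.15 CPM for Cidec). In HFCD replicates 1 to 4 Cfd was 0.108 to 0.449 CPM, and in HFCD+FMD 0.122 to 0.374 CPM. Cidec was 0.0361 to 0.555 CPM in HFCD replicates 1 to 4 and 0 to 0.105 CPM in HFCD+FMD. Limma on the deposited values called 5 of the 6 lower in both comparisons, where it called 10.0% and 8.99% of all genes. Without HFCD replicates 3 and 5 and with the set term kept, HFCD+FMD replicate 1 alone carries the estimates, so that fit cannot show whether these differences remain. With these 2 libraries left out and no set term, 203 genes passed with edgeR against HFCD and 774 against control. The endocardial list was highest in HFCD replicate 5 for 6 of its 7 genes (sum 335 CPM there and 106 to 183 CPM elsewhere), where 13.2% of all genes tested were highest. Upk3b, a mesothelial gene, was 7.32 and 1.82 CPM in HFCD replicates 5 and 3 and 0.818 CPM or less elsewhere. The leukocyte sum was also highest in HFCD replicate 5 (90.7 CPM, 40.6 to 68.9 CPM elsewhere). The fibroblast sum was 1590 and 1485 CPM in HFCD replicates 3 and 5, 1579 CPM in HFCD+FMD replicate 5 and 726 to 1153 CPM elsewhere. Skeletal muscle also makes Sln, and 3 of its 10 markers were counted. Of these Acta1 was lowest in HFCD replicate 5, while Atp2a1, the skeletal calcium pump, was highest there (5.29 CPM; 2.30 CPM in HFCD replicate 3 and at most 1.51 CPM elsewhere) and Tnni2, a fast skeletal troponin, was second to control replicate 2 (1.76 and 2.53 CPM). No lung gene of the list of 8 was among the genes counted. The part of these cell types in the results was not tested.

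**Figure D4:**
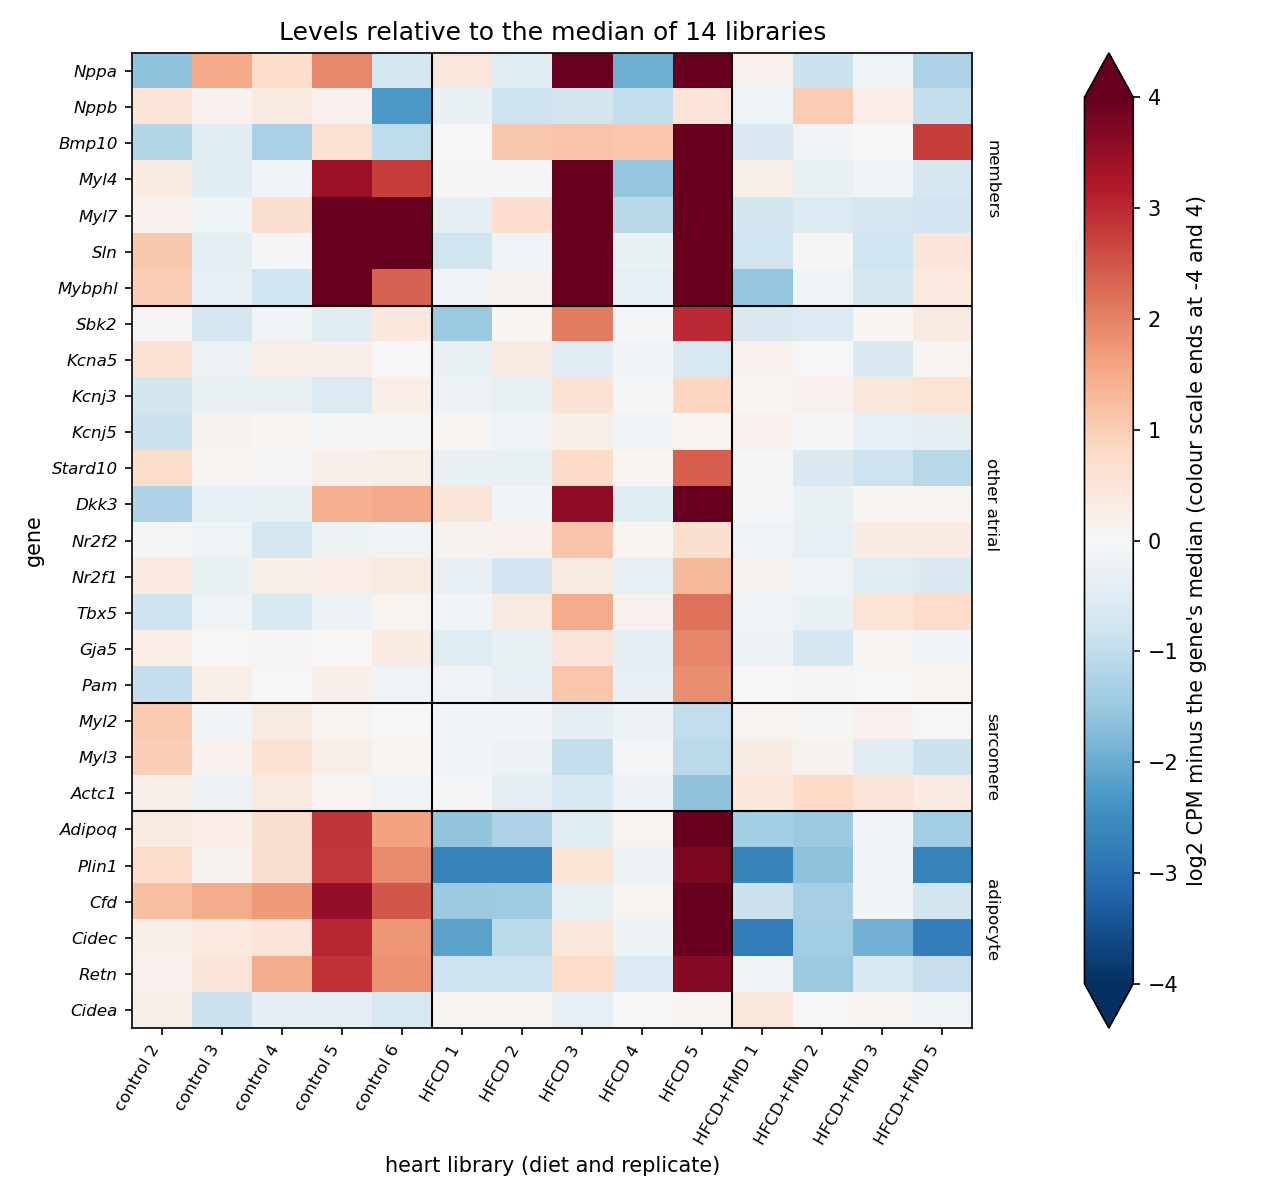
Log2 CPM (prior count of 2) minus the gene's median over the 14 heart libraries, red above and blue below, for the 7 genes, 11 other atrial genes, 3 sarcomere genes and 6 adipocyte genes (rows) in each library (columns, ordered by diet). HFCD replicates 3 and 5 are red over most atrial rows, HFCD replicate 5 and all 5 control libraries are red over 5 of the adipocyte rows, most deeply HFCD replicate 5 and control replicates 5 and 6, and Myl2, Myl3 and Actc1 are blue in HFCD replicates 3 and 5.

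The share of mitochondrially encoded counts did not order the libraries as the atrial genes did. It was 71.5% and 59.8% in HFCD replicates 3 and 5, but 62.0% and 61.4% in HFCD+FMD replicates 3 and 5, where Myl7 was 0.107 and 0.0942 CPM. With these genes left out of the totals, Bmp10 in HFCD+FMD against HFCD stood at -9.23 and Myl4 in HFCD against control at 3.10.

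Genes were also ranked by how closely their log2 CPM followed each of the 7 over the 14 libraries, among genes with a mean of at least 1 CPM, as a description, since HFCD replicates 3 and 5 stand apart and share much of each correlation. The 3 nearest genes of Myl4, Myl7, Sln and Mybphl were in each case the other 3 of these 4, with Pearson correlations from 0.963 (Myl7 and Mybphl) to 0.989 (Sln and Mybphl). Over the 12 libraries left without HFCD replicates 3 and 5 these were 0.846 to 0.955. Among these 12, control replicates 5 and 6 stand apart in turn (Myl7 21.6 and 9.38 CPM, at most 0.374 CPM in the rest) and share much of each correlation. The genes nearest to Nppa were Creb3l2, Slc38a1 and Adcy1 (0.928, 0.920 and 0.920; 0.769, 0.838 and 0.706 over 12 libraries). Those nearest to Nppb were Bysl, Cmtm7 and Ckap4 (0.848, 0.785 and 0.770; 0.870, 0.766 and 0.777 over 12), none of them among the genes near Nppa. Those nearest to Bmp10 were Timp1, an inhibitor of matrix proteases, the chaperone gene Clu and the heme-degrading enzyme gene Hmox1 (0.931, 0.930 and 0.927), which stood at 22.9, 1456 and 103 CPM in HFCD replicate 5 and at no more than 5.40, 593 and 11.1 CPM elsewhere. For Hmox1 the correlation over 12 libraries was 0.288.

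In adipose tissue, of the 7 genes only Myl4 was analysed. It stood at 7.95 ± 3.57 CPM in control (SD, n = 3), 20.3 ± 4.58 CPM in HFCD (n = 4) and 13.7 ± 2.603 CPM in HFCD+FMD (n = 6), from 54 to 927 counts a library. These CPM were scaled within adipose tissue and were not tested here. The HFCD+FMD range of 10.1 to 17.05 CPM overlapped those of control (5.23 to 12.0 CPM) and HFCD (15.2 to 25.2 CPM).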

How the data were processed

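RNA was sequenced after ribosomal depletion, per the labels' protocols. Per the submitters' processing notes, reads were aligned with STAR 2.5.3 to mm10 and handled in R 3.5.3 with edgeR and limma. The counting program is not given in the sources used here. Whole-number counts per gene were deposited by the authors. The authors also deposited heart log2 values. After allowing for 1 offset per library, these matched log2 CPM of those counts (0.5 added) minus 1 term per gene shared within 3 sets of libraries, to within 9.8e-09. What the sets stand for is not given in the sources used here. By replicate, HFCD 1 to 4 shared set A with control 2, 3 and 5, HFCD+FMD 1 shared set B with control 4 and 6, and HFCD 5 shared set C with HFCD+FMD 2, 3 and 5. Of 34 libraries in the labels 27 had columns (14 heart, 13 adipose), and 7 were not analysed here. The labels do not tie each library to its own mouse, so p-values measure the spread between libraries, which may be partly technical. Each library's total sets its precision. For a low gene 3 counts or fewer carry little information.

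Heart counts were fitted with edgeR 4.0.16 in R 4.3.3 (TMM, filterByExpr, diet and set, robust quasi-likelihood F-test, two-sided, Benjamini-Hochberg over 13230 genes, threshold 0.05; SE is the size of the estimate over the square root of F), and the deposited log2 values with limma 3.58.1. Only HFCD replicate 5 and HFCD+FMD replicate 1 tie HFCD+FMD to the other diets within sets. Without HFCD replicate 5 and with the set term kept, HFCD+FMD replicate 1 alone carries the HFCD+FMD estimates. In a check on simulated data, 200 of 13230 genes were changed 4-fold. For HFCD against control the fit recovered 186 with 9 false calls, and for HFCD+FMD against HFCD 162 with 4. Recovery of genes that are high in only a few libraries of a diet, or that differ between sets, was not tested. Coordinates and exon lengths came from GENCODE M21 (GRCm38, the build that mm10 names) and promoters from RefSeq (GRCm38.p6). The 7 genes and the 24 gene lists were chosen with earlier results of these data known. The genes named are the 7, the called members of lists with the smallest p (up to 4 each), 11 defining genes given whatever their result and the 3 nearest genes of each of the 7. Other list members that are named (Dkk3, Tbx5, Pam, Kcna5, Kcnj5, Hey2, Myh7, Irx3, Irx4, Kcnip2, Pln, Adipoq, Plin1, Retn, Cidea, Upk3b, Atp2a1 and Tnni2) were chosen after their values were seen. The alternatives were RLE scaling, DESeq2 1.42.0, voom, other count filters, no set term, age as a covariate, fewer diets or sets, no mitochondrially encoded genes, the deposited values and left-out libraries. Leaving out HFCD replicates 3 and 5 with no set term, and together with control replicates 5 and 6, was added after seeing the data.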

Additional observations from a re-analysis of the deposited data

Results flagged for a closer look

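In 6 of the 21 sets of values examined (7 genes in 3 diets), 1 library lay far from the others of its diet by Dixon's 95% limit. The limit is made for normally spread values and was used on CPM without a log scale, so no chance rate is given. HFCD replicate 5, already set apart above, was far from its group for Nppa (1282 CPM), Bmp10 (850 CPM) and Sln (164 CPM). Control replicate 6 passed the limit for Nppb, where it was low at 16.7 CPM, and control replicate 5 for Mybphl at 4.43 CPM. HFCD+FMD replicate 5 did so for Bmp10 at 2.61 CPM. For Myl4 and Myl7 no library passed the limit within HFCD, where replicates 3 and 5 were both high. The sets share libraries and are not independent.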

How the results depend on the processing

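The counts of genes called depended on a few libraries and on how library sets were handled. Where HFCD replicate 5 was left out and the set term kept, HFCD+FMD was estimated from replicate 1 alone, so a count of 0 there carries little information. For HFCD against control none of the 7 genes passed in any setting that tested them, and of all genes 53 passed on the deposited log2 values and 61 with DESeq2. Not every setting tested all 7. Sln and Mybphl were not tested with only the diets compared or with set A only, and Bmp10 had no deposited value. Sln was not tested without HFCD replicates 3 and 5, and only 4 of the 7 were when control replicates 5 and 6 were left out too. For HFCD+FMD against HFCD the number of the 7 that passed went from 1 to 0 with a stricter filter (which tested only 3 of the 7), with no set term, with age as a covariate, without HFCD replicates 3 and 5 (with or without the set term), and without these and control replicates 5 and 6 (set term kept), and to 5 on the deposited values. With single libraries left out it ranged from 0 (without HFCD replicate 5 or HFCD+FMD replicate 3) to 2 (without HFCD replicate 3). The genes called in all, 14 in the main fit, numbered 0 with the stricter filter, 0 with no set term, 2 with age, 268 with only these diets, 0 without HFCD replicates 3 and 5, 203 without these and no set term, 0 without these and control replicates 5 and 6 with the set term kept, 1316 on the deposited values, 279 with DESeq2, and 0 to 368 with single libraries left out (368 without HFCD+FMD replicate 1). For HFCD+FMD against control the 7 gave 1 call (Myl7, -5.83, adjusted p = 0.0400) without HFCD replicates 3 and 5 and no set term, 3 on the deposited values and 0 to 1 with single libraries left out. All genes gave 1 call with the stricter filter, 0 with no set term, 0 with only these diets, 0 without HFCD replicates 3 and 5, 774 without these and no set term, 0 without these and control replicates 5 and 6 with the set term kept, 1 with voom, 1183 on the deposited values, 145 with DESeq2, and 0 to 217 with single libraries left out (217 without HFCD+FMD replicate 1).

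Estimates turned sign as follows, none of them past the threshold. In 3 settings libraries were left out together: HFCD replicates 3 and 5 with the set term kept, the same with no set term, and HFCD replicates 3 and 5 with control replicates 5 and 6 and the set term kept. In the first and the last of them HFCD+FMD estimates rest on HFCD+FMD replicate 1 alone. For HFCD against control, Nppa in these 3 settings was -1.56, -1.24 and -1.03 and Myl4 -2.52, -2.46 and -0.33. In the first and the second of them Myl7 was -5.28 and -5.08 and Mybphl -3.78 and -3.34, and with voom Myl7 was -0.39. For HFCD+FMD against HFCD, Nppa was 1.55 in the first and 0.48 in the last, Myl4 was 0.75, 0.17 and 0.67 in the 3 settings, Bmp10 was 0.50 without HFCD replicates 3 and 5 and no set term, and Nppb was -0.20 with only these diets. For HFCD+FMD against control, Nppb was 0.16 with no set term, 0.0040 with age, 0.25 with only these diets, 0.25 without HFCD replicates 3 and 5 and 0.16 without these and no set term. Bmp10 was 1.90 with no set term and 0.81, 1.92 and 1.07 in the 3 settings, and Myl4 was 0.33 in the last. With single libraries left out, HFCD against control ranged from -0.81 to 5.09 for Myl4, -5.04 to 6.98 for Myl7 and -3.77 to 2.34 for Mybphl (each lowest without HFCD replicate 3). Nppb ranged from -0.19 to 1.24 against HFCD and from -1.17 to 0.25 against control, and Bmp10 from -9.19 to 0.80 against control (highest without HFCD replicate 5). The cause of these turns was not tested. Sln was below the count filter without HFCD replicate 3, HFCD replicate 5 or control replicate 5 or 6, and Mybphl without HFCD replicate 5 or control replicate 5. DESeq2 gave no adjusted p for Nppa, Myl4, Myl7, Sln and Mybphl. No paired analysis was possible because the replicate numbers follow accession order only, and nothing in the labels ties equal numbers to an animal, litter or batch. Counts of 10 or fewer limit Myl7, Sln and Mybphl in most libraries.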
